A study of Mus musculus with 8 samples.

Results

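Genes listed as fetal liver macrophage genes were followed in S0 cells, the earliest erythroid gate of the E12.5 mouse liver. Wild-type (WT) embryos were compared with embryos lacking both VPS13A and VPS13C (double knockout, DKO). The 10 genes, of 52636 in the count table, were chosen by name, with earlier results of these data known: Csf1r, Adgre1, Cd68, Vcam1, C1qa, C1qb, C1qc, Mrc1, Clec7a and Itgam. All 10 passed the filter on low counts, as did 17378 genes in all. The WT and DKO groups held 4 libraries each, one per sample, and each sample was taken as 1 embryo, which the sources used here do not state. VPS13A and VPS13C are related proteins that move lipids between membranes at organelle contacts. DKO embryos came from intercrosses of Vps13a+/-/Vps13c-/- mice, which cannot give WT embryos, so litter and genotype cannot be told apart. Both alleles were lost in the whole body, the Vps13a allele after germline Cre recombination (β-actin-Cre), and mice were kept on a C57BL/6J background.

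S0 cells were sorted as live cells negative for CD71, for Ter119 and for a lineage cocktail against CD3e, CD4, CD8a, B220, CD127, CD11b and Ly6G/Ly6C. CD11b is the product of Itgam, so cells with that protein on their surface were meant to be removed in both groups, whereas F4/80, the product of Adgre1, was not in the cocktail. The gate was made for erythroid precursors and not for macrophages. RNA of the sorted cells was copied with a low-input template-switching kit that does not mark strand.

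Fetal liver macrophages stand at the centre of erythroblastic islands, where maturing erythroblasts attach to them. They take up the nuclei that erythroblasts expel, degrade the DNA and recycle iron. Their survival depends on signalling through the CSF1 receptor. Several of the genes are read in other myeloid cells too: Csf1r and Itgam in monocytes and their progenitors, Clec7a in monocytes and neutrophils, and Cd68 at a low level in many cell types.

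The libraries held between 36981439 and 50886469 counts, 42114489 to 50886469 in WT and 36981439 to 42587815 in DKO. Vps13a was lower in every DKO library (607 to 1039 normalized counts) than in every WT library (1825 to 2109), whereas Vps13c, counted over all its exons, was 518 to 1088 in DKO and 503.7 to 664 in WT, so that its count does not check the knockout. DKO replicate 1 stood apart: it lay at 3.36 on the first axis of a multidimensional scaling plot, against 1.03 to 1.42 for the other DKO libraries and -2.49 to -1.14 for WT. The share of counts from histone genes was 0.102% to 0.117% in DKO and 0.0478% to 0.0526% in WT, and that from mitochondrial genes was 2.33% to 2.97% in DKO and 1.57% to 1.75% in WT. Xist, the RNA that coats the inactive X chromosome, exceeded 1000 counts in 3 DKO libraries and in 0 WT libraries, and DKO replicate 3 was like WT in this respect. Normalized counts are counts scaled to a common library size, and 3 counts, taken as the limit of detection, come to between 2.58 and 3.66 normalized counts depending on the library.

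The name of the set was checked first, against genes by which mature resident macrophages are known. Cd163 and Vsig4, scavenger and complement receptors of resident macrophages, had no count in any of the 8 libraries. Timd4, a receptor for phosphatidylserine, was counted in 1 WT library alone (19.2 normalized counts), and Siglec1, a sialic acid receptor, in 2 DKO libraries (13.7 and 19.5). The chains of C1q, among the most abundant transcripts of tissue macrophages, reached at most 128 normalized counts in any library. Other genes of resident macrophages were read in every library, such as the engulfment receptor Mertk (70.8 to 393 normalized counts), the Fc receptor Fcgr1 (24.4 to 112), the lysosomal protease Lgmn (453 to 1024) and the scavenger receptor Stab1 (131 to 347). Of the 22 listed genes of resident macrophages besides the 10, 12 were read in all 8 libraries and 2 in none. The genes are therefore described as they were read in S0 cells, without naming a macrophage population, and fewer cells of a type and less RNA per cell cannot be told apart in sorted bulk samples.

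Promoter sequence is shown for 4 of the genes, 2 that fell in DKO (Clec7a and Itgam) and 2 that did not pass the test (C1qb and Cd68), because macrophage promoters are known for purine-rich PU boxes that bind the myeloid factor PU.1, the product of Spi1. RefSeq (GRCm38.p6) start sites were at hand for 6 of the 10 genes, in 7 windows of 250 bases before the start, as Clec7a had a pair of overlapping windows. The motif GAGGAA was searched on both strands, as GAGGAA or TTCCTC. It was present in 7 of the 7 windows, against 23.25% of all 32851 windows of that length (7639 windows). The motif stood in windows of genes that fell and of genes that did not, and a match is a description of the letters and not of binding. Capitals mark the motif, each run is written 5′ to 3′ along the gene, and positions count back from the start site. The windows are chr6:129472780-129473029 (minus strand, motif from -96) for Clec7a, chr7:128062390-128062639 (plus strand, motifs from -84 and -15) for Itgam, chr4:136886201-136886450 (minus strand, motif from -30) for C1qb and chr11:69666171-69666420 (minus strand, motif from -225) for Cd68.
Clec7a: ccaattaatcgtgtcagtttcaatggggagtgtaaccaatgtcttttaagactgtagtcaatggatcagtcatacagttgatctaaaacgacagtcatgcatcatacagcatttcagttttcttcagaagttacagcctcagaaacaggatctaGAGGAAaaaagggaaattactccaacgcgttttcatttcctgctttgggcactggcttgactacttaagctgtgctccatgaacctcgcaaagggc
Itgam: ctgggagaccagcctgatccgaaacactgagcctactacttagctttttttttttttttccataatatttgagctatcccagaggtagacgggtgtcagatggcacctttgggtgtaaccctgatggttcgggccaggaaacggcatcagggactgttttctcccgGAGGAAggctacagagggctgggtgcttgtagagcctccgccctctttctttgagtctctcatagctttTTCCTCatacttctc
C1qb: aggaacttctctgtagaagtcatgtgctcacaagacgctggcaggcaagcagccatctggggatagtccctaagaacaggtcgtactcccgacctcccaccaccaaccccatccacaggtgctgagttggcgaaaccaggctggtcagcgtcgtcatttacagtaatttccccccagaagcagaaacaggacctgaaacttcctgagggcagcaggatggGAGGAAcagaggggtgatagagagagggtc
Cd68: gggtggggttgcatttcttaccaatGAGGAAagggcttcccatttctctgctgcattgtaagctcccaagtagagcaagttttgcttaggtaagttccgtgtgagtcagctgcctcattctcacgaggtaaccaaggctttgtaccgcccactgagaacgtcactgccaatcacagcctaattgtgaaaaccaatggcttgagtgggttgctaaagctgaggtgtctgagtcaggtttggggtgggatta

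To ask whether the macrophage genes differ between WT and DKO S0 cells, their counts were compared by edgeR's quasi-likelihood test with Benjamini-Hochberg adjustment over all 17378 genes, and a gene was called at an adjusted p below 0.05 with a change of more than 1 on the log2 scale. The genes did not move as one group. Clec7a, Itgam and Adgre1, surface receptors of phagocytes, fell in DKO, by between 7.08-fold and 22.2-fold. Csf1r was also lower in every DKO library but did not pass the test. Cd68 and Vcam1 overlapped between the groups, and the C1q chains and Mrc1 were low in both groups, at no more than 128 normalized counts in any library.

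Of the 10 genes, 3 were called lower (30%) and 0 were called higher. Across all genes tested, 2.43% were called lower and 6.19% were called higher. At an unadjusted p below 0.05, 4 of the macrophage genes were lower in DKO and 0 were higher, against 17.8% of all genes that were lower. DESeq2 called 3 of them lower and 0 higher, against 2.95% and 7.87% of the 21006 genes to which it gave an adjusted p. Every DKO library lay below every WT library for 4 of the 10 genes, against 14.6% of all genes. The median log2 change was -0.68 over the 10 genes and 0.03 over all genes. Of the 10 estimates 8 were below 0, against 8231 of all 17378 genes. Among those 8, C1qb (-0.54, SE 1.51) and Mrc1 (-0.26, SE 0.87) lay within their standard error of 0.

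**Figure D1:**
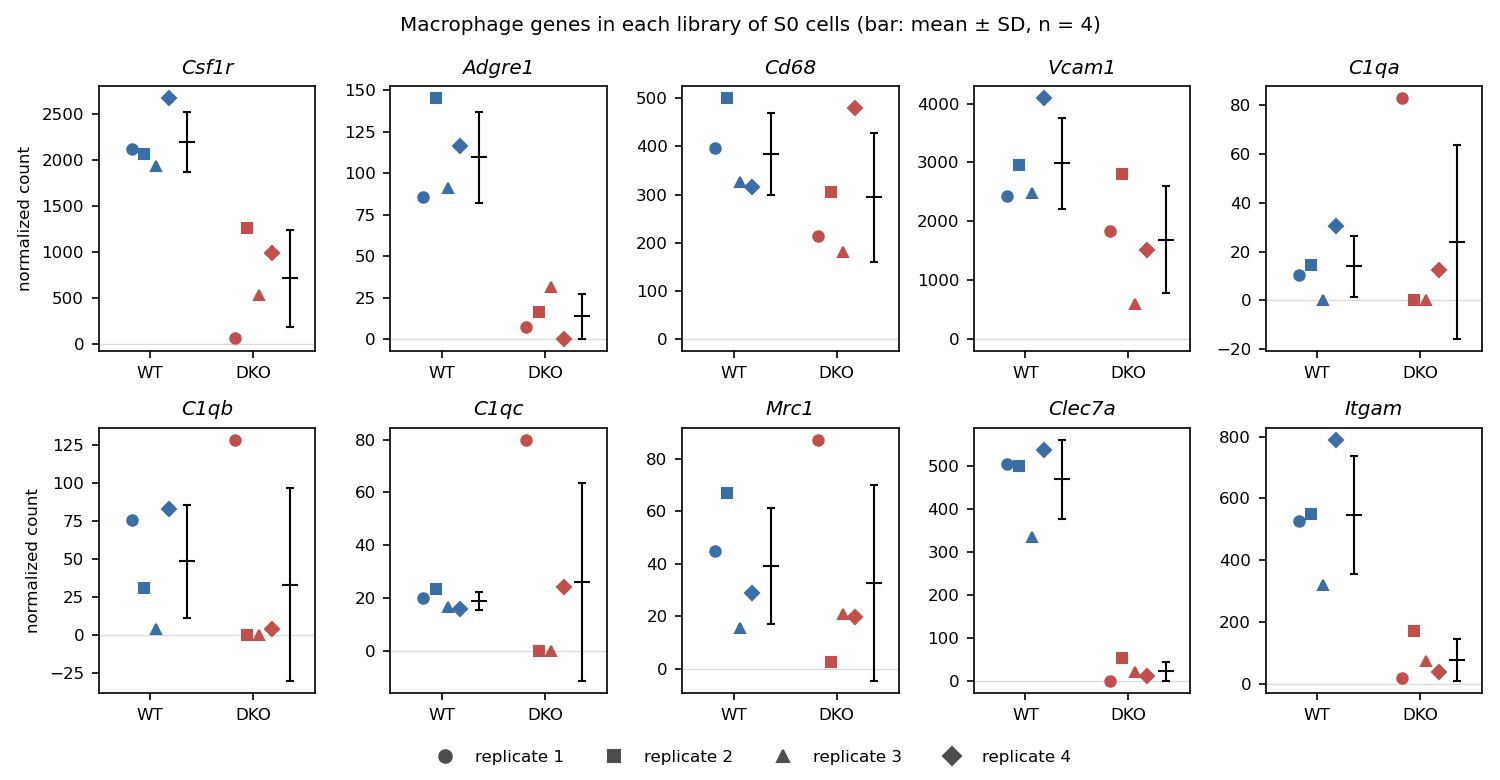
Normalized counts of the 10 macrophage genes (vertical axes, linear, one scale per gene) in the 4 WT (blue) and 4 DKO (red) libraries, with marker shape giving the replicate and black bars the mean ± SD. Csf1r, Adgre1, Clec7a and Itgam do not overlap between the groups, and DKO replicate 1 (circle) is the highest library for C1qa, C1qb, C1qc and Mrc1.

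Clec7a, which encodes the β-glucan receptor Dectin-1, showed the widest difference. Its normalized counts were 503.7, 499, 334 and 537 in WT replicates 1 to 4. In DKO replicates 1 to 4 they were 0, 53.5, 19.5 and 11.5. The highest DKO library was thus well below the lowest WT library, and no count was found in DKO replicate 1. Clec7a fell by 4.47 on the log2 scale (SE 0.84, adjusted p = 0.00790 by edgeR), and the call held in 8 of 8 fits that each left out 1 library, in which the estimate ran from -5.51 to -4.05. The gene spans chr6:129461591-129472779 (mm10, minus strand), and GENCODE M21 lists it as a polymorphic pseudogene.

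Itgam, the α chain of the integrin Mac-1 (CD11b/CD18) by which phagocytes bind complement-coated particles, was also called lower. WT replicates 1 to 4 had 528, 549, 322 and 789 normalized counts of Itgam. In DKO they were 21.01, 173, 74.5 and 40.8. The groups did not overlap, and DKO replicate 1 was again the lowest. Itgam fell by 2.82 on the log2 scale (SE 0.59, adjusted p = 0.0116 by edgeR), was called in 8 of 8 fits that left out 1 library, and ran from -3.60 to -2.50 in them. The gene spans chr7:128062640-128118491 (mm10, plus strand), where the annotation places a second protein-coding gene, Gm49368, on the same strand with 0 to 56 counts a library, so reads in shared sequence may have been divided between them. The lineage cocktail holds an antibody to the Itgam product, and the part of the sort in its difference was not tested.

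Adgre1, which encodes F4/80, the classical surface marker of mouse macrophages, was low in both groups. The WT libraries held 85.9, 145, 91.2 and 116 normalized counts. In DKO they were 7.36, 16.3, 31.7 and 0. No DKO library reached the lowest WT library. Adgre1 fell by 2.99 on the log2 scale (SE 0.88, adjusted p = 0.0383 by edgeR), yet only 2 of 8 fits without 1 library kept the call, those without DKO replicate 3 and without DKO replicate 4, and the adjusted p ran from 0.0209 to 0.0975. The gene spans chr17:57358691-57483527 (mm10, plus strand).

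When sex, read from Xist, was added to the fit as a term, none of these 3 genes was called (edgeR adjusted p = 0.135 for Clec7a, 0.164 for Itgam and 0.443 for Adgre1). That fit leaves DKO replicate 3 alone to be set against WT. The replicate had 19.5 normalized counts of Clec7a, 74.5 of Itgam and 31.7 of Adgre1, each below all 4 WT libraries. Xist exceeded 1000 counts in the 3 other DKO libraries and in 0 WT libraries, so these values do not separate sex from genotype. The share of sex in the differences of these 3 genes was not tested.

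Csf1r encodes the receptor for CSF1 and IL-34, on which tissue macrophages depend. Its normalized counts were 2116, 2063, 1932 and 2672 in WT. In DKO they were 62.0, 1261, 529.9 and 990.5. All DKO libraries lay below all WT libraries (p = 0.0286 by a two-sided exact permutation test, which with 70 arrangements cannot give less), but the DKO libraries differed widely among themselves, with replicate 1 far under the rest. The log2 change was -1.63 (SE 0.63) and did not pass the test (edgeR adjusted p = 0.0961). Without DKO replicate 1 the change was smaller, -1.24, and was called (edgeR adjusted p = 0.0113). The gene lies on chromosome 18 (61100598 to 61132149, mm10, plus strand) and overlaps Hmgxb3 on the other strand, which had 1074 to 1995 counts a library, so that without strand their reads cannot be told apart where they overlap.

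**Figure D2:**
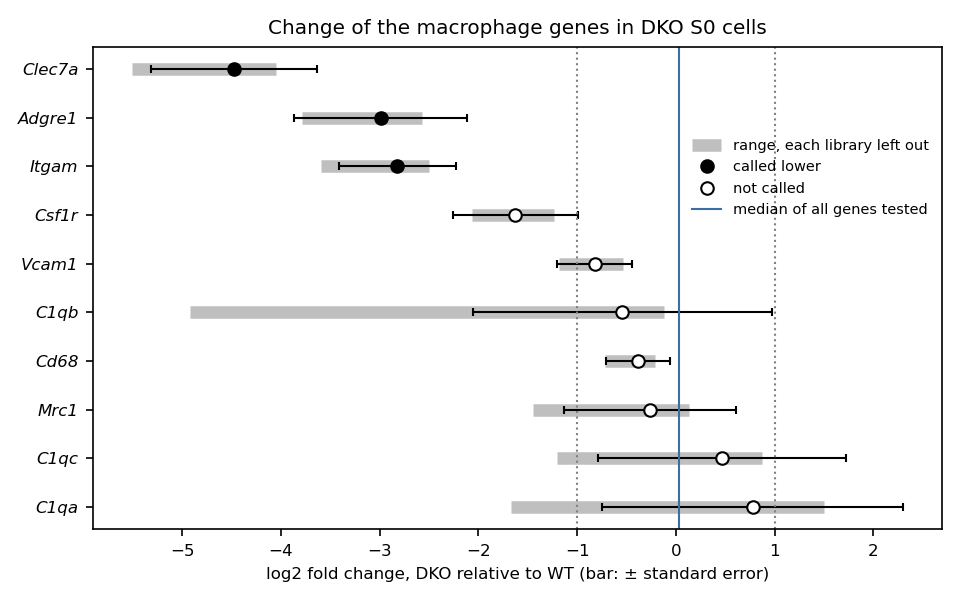
Log2 fold change of each macrophage gene in DKO relative to WT (horizontal axis), with filled points for called genes, bars for ± standard error, grey bands for the range over the fits that left out 1 library, a blue line at the median of all genes and dotted lines at -1 and 1. Clec7a, Adgre1 and Itgam stand at -4.47, -2.99 and -2.82, and the band of C1qb reaches from -4.92 to -0.12.

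Setting the receptors against Csf1r within each library needs no scaling between libraries. The Clec7a count came to between 17.3% and 24.2% of the Csf1r count in WT and to between 0% and 4.24% in DKO, so that the ratios did not overlap. The Itgam count came to 16.7% to 29.5% of Csf1r in WT. In DKO it was 33.9%, 13.7%, 14.1% and 4.11% in replicates 1 to 4, on both sides of the WT range. Adgre1 came to 4.06% to 7.05% of Csf1r in WT and 11.9%, 1.29%, 5.99% and 0% in DKO, which again spans the WT range. Relative to Csf1r, Clec7a was thus lower in every DKO library, and Itgam and Adgre1 were not.

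Vcam1 and Cd68 were read in all 8 libraries. Vcam1 is the adhesion molecule by which the island macrophage holds the erythroblast, and is made by endothelial and stromal cells as well. Its normalized counts were 2424, 2955, 2478 and 4093 in WT. In DKO they were 1843, 2798, 606 and 1508. DKO replicate 2 lay within the WT range and replicate 3 far below it. The log2 change of -0.82 (SE 0.38) did not pass the test (edgeR adjusted p = 0.149). Without DKO replicate 2 it was -1.18 and was called, with an adjusted p of 0.04997 by edgeR, just under the threshold. DKO replicate 3 was also the lowest library for 12 of 12 hepatoblast genes, with a summed level of 212700 normalized counts against 519700 to 822800 in the other DKO libraries and 719400 to 974000 in WT, and the part of this in the Vcam1 level was not tested. Vcam1 spans chr3:116109949-116129688 (mm10, minus strand).

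Cd68 encodes a glycoprotein of lysosomes. Its levels were 397, 500.0, 327 and 316 normalized counts in WT. In DKO they were 213, 306, 181 and 479. The groups overlapped, since DKO replicate 4 was higher than 3 of the 4 WT libraries. The log2 change was -0.38 (SE 0.32, edgeR adjusted p = 0.428), and no fit that left out 1 library called it. Cd68 spans chr11:69664213-69666153 (mm10, minus strand).

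C1qa, C1qb and C1qc encode the chains of C1q, which opens the classical complement pathway and tags dying cells for uptake. They lie next to each other on the minus strand within chr4:136880129-136898803 (mm10). The C1qb counts were 75.4, 31.0, 4.34 and 83.1 in WT and 128, 0, 0 and 4.18 in DKO. The C1qa counts were 10.5, 14.6, 0 and 30.6 in WT and 83.0, 0, 0 and 12.54 in DKO. The C1qc counts were 19.9, 23.2, 16.5 and 15.7 in WT and 79.9, 0, 0 and 24.0 in DKO. All 3 chains were highest in DKO replicate 1 and had no count in DKO replicates 2 and 3. None passed the test, with log2 changes of 0.78 (SE 1.53), -0.54 (SE 1.51) and 0.47 (SE 1.26) for C1qa, C1qb and C1qc (edgeR adjusted p = 0.757, 0.833 and 0.827). Without DKO replicate 1 the change was -1.67 for C1qa, -4.92 for C1qb and -1.20 for C1qc, and only C1qb was called (edgeR adjusted p = 0.0321). The sign for C1qa and C1qc, and the call for C1qb, thus turned on 1 library.

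Mrc1, the mannose receptor CD206, was highest in DKO replicate 1 like the C1q chains, but was counted in DKO replicates 2 and 3, where they were not. Its normalized counts were 45.0, 67.1, 15.6 and 28.9 in WT. In DKO they were 87.2, 2.33, 20.8 and 19.9. DKO replicate 1 was the highest of the 8 libraries and DKO replicate 2 was below the level of 3 counts. The log2 change was -0.26 (SE 0.87, edgeR adjusted p = 0.862). Mrc1 spans chr2:14229392-14332057 (mm10, plus strand).

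DKO replicate 1 was therefore at both ends of the set, with the highest value of the 8 libraries for 4 genes (C1qa, C1qb, C1qc and Mrc1) and the lowest for 3 (Csf1r, Clec7a and Itgam). It was also the highest library for 12 of 12 mesenchymal genes, whose summed level was 53060 normalized counts there, 14920 to 23420 in the other DKO libraries and 3783 to 7614 in WT. The summed level of 15 monocyte and neutrophil genes was 6058 in DKO replicate 1, 32410 to 47830 in the other DKO libraries and 106400 to 139400 in WT. Mpo alone made up most of each sum, with 3829 in DKO replicate 1, 24390 to 36260 in the other DKO libraries and 91280 to 120800 in WT. DKO replicate 1 was the lowest library for 8 of the 12 tested genes of that list. No gene of either list was at 0 in all 8 libraries. The part of these cells in the macrophage gene differences was not tested. Without DKO replicate 1, 4 of the 10 genes were called lower: Csf1r, C1qb, Clec7a and Itgam.

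**Figure D3:**
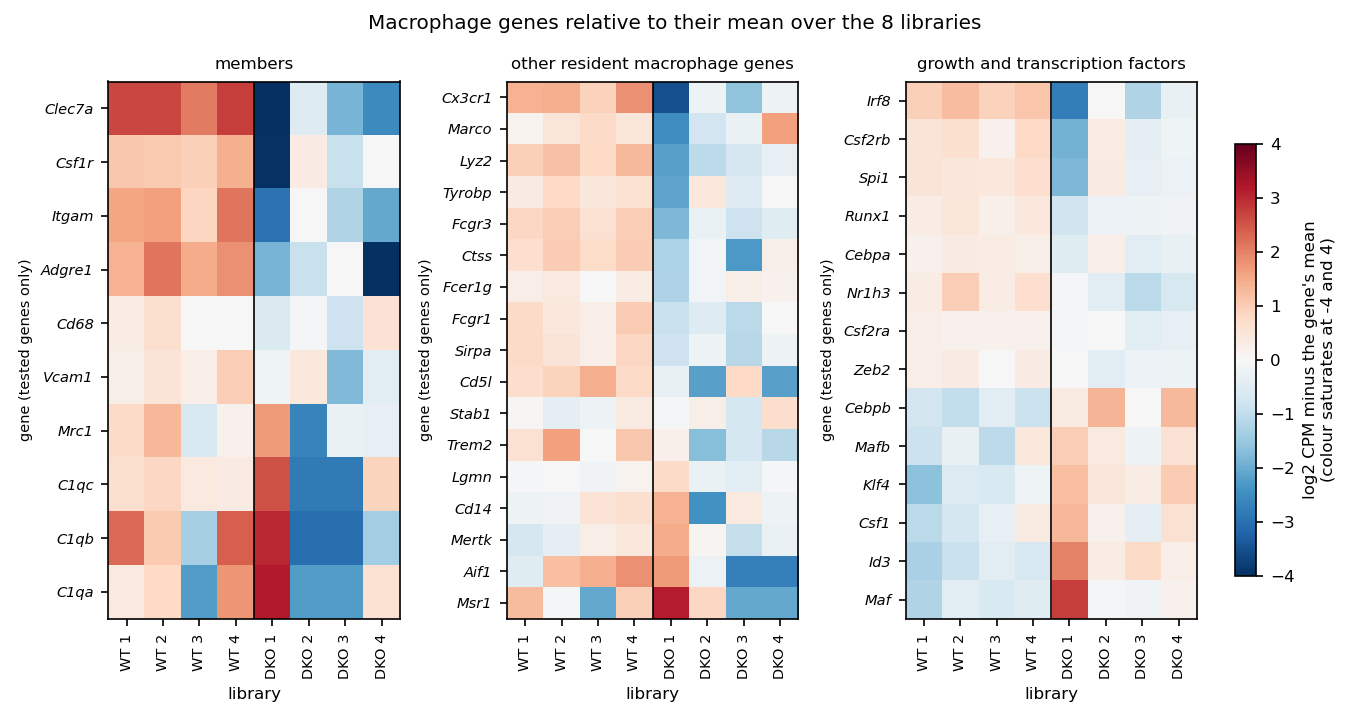
Log2 CPM of each gene minus its mean over the 8 libraries (colour, saturating at -4 and 4) for the 10 macrophage genes, 17 other resident macrophage genes and 14 growth and transcription factors that passed the filter, with libraries as columns. DKO replicate 1 is the lowest library for Csf1r, Clec7a and Itgam and the highest for Mrc1 and the C1q chains.

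Levels can be compared between genes only per length, here as CPM (counts relative to library size) per kilobase of exon. On that scale the order in WT was Csf1r (8.66 ± 1.29, SD, n = 4), Vcam1 (7.67 ± 1.99), Cd68 (6.97 ± 1.54), Clec7a (4.04 ± 0.789), Itgam (2.48 ± 0.865), C1qb (1.01 ± 0.781), Adgre1 (0.771 ± 0.192), C1qa (0.305 ± 0.278), C1qc (0.222 ± 0.0406) and Mrc1 (0.14 ± 0.0793). Of the neighbours in this order, only Cd68 and Clec7a did not overlap over the 4 libraries. The level of Csf1r was above that of 69.6% of the genes tested and that of Mrc1 above 9.24%. In DKO the order was headed by Cd68 (5.34 ± 2.42), Vcam1 (4.33 ± 2.32) and Csf1r (2.80 ± 2.08) and ended with Clec7a (0.182 ± 0.199), Mrc1 (0.116 ± 0.134) and Adgre1 (0.0974 ± 0.0961), with every pair of neighbours overlapping. Clec7a thus went from the fourth place in WT to the eighth in DKO, and from above 56.0% of the genes tested to above 7.63%.

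**Figure D4:**
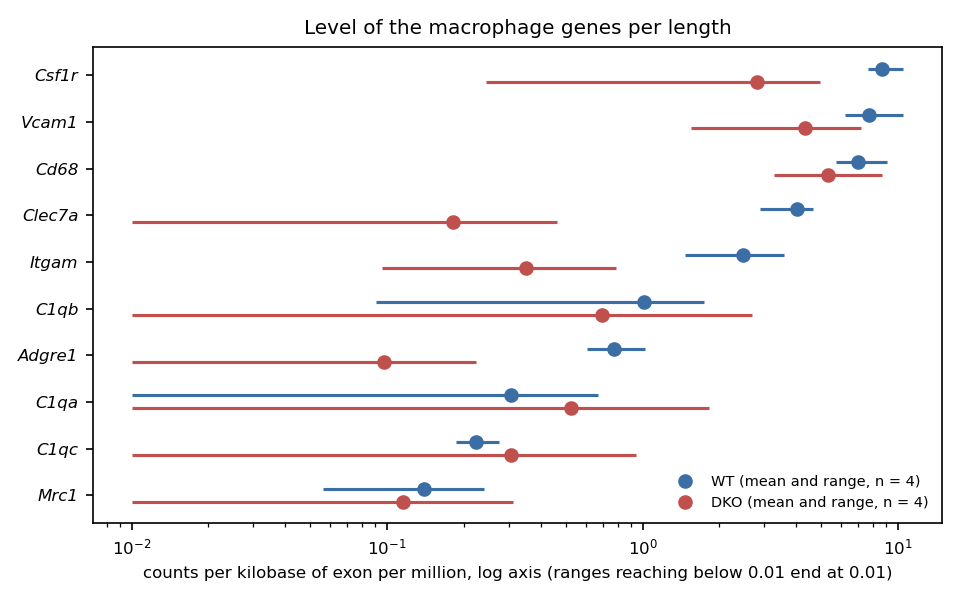
Level of each macrophage gene per length (horizontal axis, CPM per kilobase of exon, log scale), with points for the mean and lines for the range of 4 WT (blue) and 4 DKO (red) libraries, where ranges that go below 0.01 are drawn to 0.01. Csf1r heads the WT order at 8.66, and the ranges of Csf1r, Clec7a, Itgam and Adgre1 do not overlap between the groups.

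Genes that work with these receptors, or in the same cells, were examined as lists. Of 22 other resident macrophage genes, 17 were tested, 4 fell and 0 rose, and their median log2 change was -1.13. Those that fell were Fcgr3, an activating Fc receptor (log2 change -1.61), the fractalkine receptor Cx3cr1 (-2.34), lysozyme Lyz2 (-1.98) and Sirpa (-1.13), the receptor for the CD47 signal that restrains engulfment. The level of Lyz2 ranged from 2957 to 4217 normalized counts in WT and from 377 to 1369 in DKO, without overlap. These 4 genes are read in monocytes as well as in macrophages, and Fcgr3, Lyz2 and Sirpa in granulocytes too.

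The growth and transcription factors of macrophages changed in both directions. Of 16 genes, 14 were tested, 2 fell and 3 rose, with a median of -0.41. The genes that fell were Irf8 (-1.79), which directs monocyte and dendritic cell fate, and Nr1h3 (-1.10), a sterol-sensing nuclear receptor of macrophages. Cebpb (1.62), Id3 (1.80) and Klf4 (1.47), transcription regulators that non-myeloid cells use too, rose. Spi1, which encodes PU.1, ranged over 5005 to 5982 normalized counts in WT and stood at 1064, 4665, 3007 and 3160 in DKO replicates 1 to 4. The groups did not overlap, but the log2 change of -0.85 (SE 0.34) did not pass the test (edgeR adjusted p = 0.105). Csf1, the ligand of the CSF1 receptor, had a log2 change of 0.91 (SE 0.42, edgeR adjusted p = 0.149).

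Among 17 genes of the erythroblastic island, of nucleus engulfment and of iron recycling, all tested, 0 fell and 3 rose, with a median of 0.50. Those called higher were Axl (1.89), a receptor for dying cells, the haem-degrading enzyme Hmox1 (2.51) and the growth factor Igf1 (3.38). Each is made by mesenchymal or other cells as well as by macrophages. Hmox1 overlapped between the groups, with 265 normalized counts in DKO replicate 3 and 209 to 314 in WT, whereas Axl and Igf1 did not overlap. Dnase2a, by which island macrophages digest the DNA of expelled nuclei, lay between 539 and 646 normalized counts in WT and between 702 and 929 in DKO, a log2 change of 0.50 that was under the size needed for a call (edgeR adjusted p = 0.0347). Itga4, a chain of the integrin that binds Vcam1, was 8020 to 9250 in WT and 5302 to 5982 in DKO. The log2 change of Itga4 was -0.62, again under the size needed (edgeR adjusted p = 0.00201).

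Partners of the single members were then counted. Of 11 genes of the C1q cascade and its receptors, 10 were tested and 1 fell, Cd93 (-1.93), a receptor once linked to C1q and made by early haematopoietic and endothelial cells, with a median of -0.04. Of 13 genes of integrin and Dectin-1 signalling, all tested, 13 had a negative estimate and 1 fell, the Dectin-1 relative Clec4e (-2.08), with a median of -0.61. Itgb2, which encodes the partner chain CD18 of Itgam, ranged from 2839 to 3369 normalized counts in WT and from 1429 to 2712 in DKO. Its log2 change of -0.61 did not reach the size needed for a call (edgeR adjusted p = 0.0324). Syk, the kinase downstream of Dectin-1, changed by -0.69 (adjusted p = 0.0114 by edgeR), also under that size.

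Markers of other cells that the gate could hold gave these counts. Of 15 monocyte and neutrophil genes, 12 were tested, 5 fell (F13a1, Mpo, Elane, Ctsg and Csf3r) and 1 rose (Lcn2, 5.65), with a median of -1.38. Of 12 mesenchymal genes, 9 rose and 0 fell, with a median of 2.42. The 10 megakaryocyte genes had a median of 0.06. Of 15 endothelial genes, 14 of them tested, 1 fell (Pecam1, -1.14), with a median of -0.67. Of 12 hepatoblast genes, 11 had a negative estimate (median -0.83). For 6 of them every DKO library lay below every WT library, against 14.6% of all genes. None of the 12 was called by edgeR, and 6 were lower at an unadjusted p below 0.05, against 17.8% of all genes. DESeq2 called 2 lower, against 2.95% of the genes to which it gave an adjusted p. DKO replicate 3 was the lowest library for all 12. Of 12 erythroid genes (median -0.02) none was called by edgeR or by DESeq2. At an unadjusted p below 0.05 edgeR gave 1 lower, against 17.8% of all genes. It gave 2 higher, for which the share of all genes was not counted. Of 10 sorting antigens, 5 were tested and 1 fell, Ptprc (-1.67, median -1.67), which encodes CD45 and, as an isoform, B220. The fit with the sex term leaves DKO replicate 3 alone to be set against WT, so its calls in these lists are not read as a genotype difference.

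**Figure D5:**
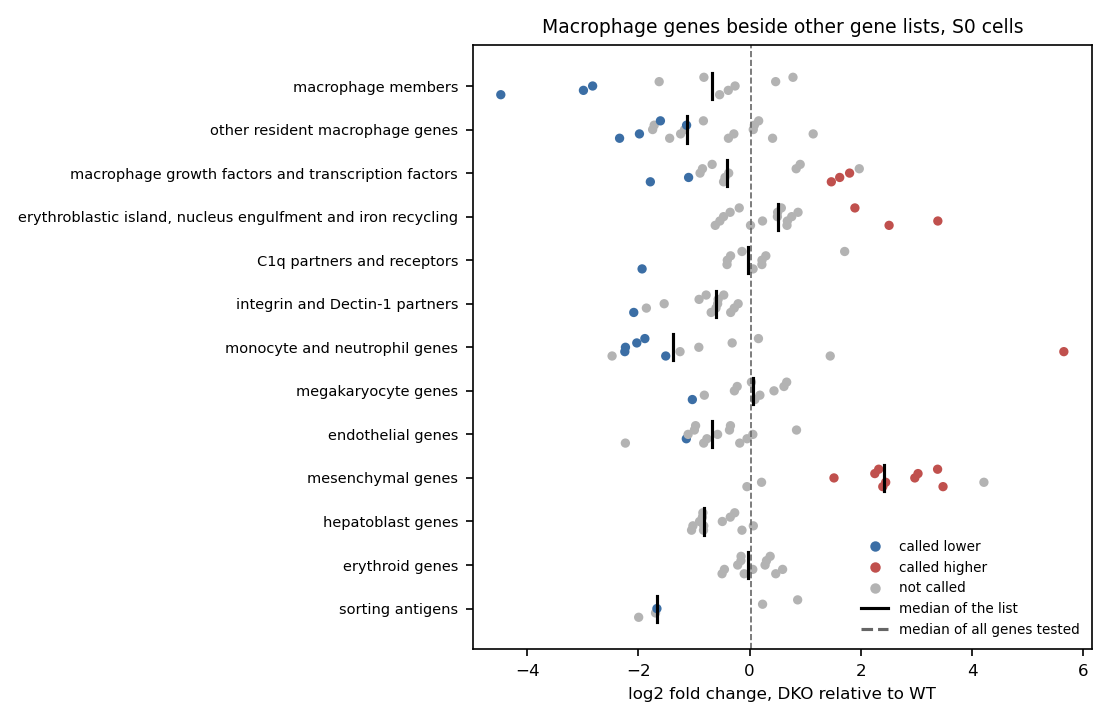
Log2 fold change in DKO relative to WT (horizontal axis) of each tested gene in the macrophage set and 12 other lists, with blue and red points for genes called lower and higher, grey points for genes not called, black bars for list medians and a dashed line at the median of all genes. The macrophage set has a median of -0.68, the monocyte and neutrophil list -1.38 and the mesenchymal list 2.42.

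The pattern of the members over the 8 libraries was compared with that of every other protein-coding gene, by the root mean square distance between log2 values centred on each gene's mean. Nearest to the mean of the 3 C1q chains were Chrnb4 (0.776), Nptxr, Scin, Cyp1a1 and Fam83c (0.944). Each of these had few counts, with 0 in at least 1 library and no call. Among the genes nearest to the mean of Csf1r, Clec7a and Itgam, a set grouped after its values were seen, were Adgrl4 (0.429), Flt3, Csf3r and Nlrp1a (0.482). These 4 genes were called lower in DKO, as the choice of a profile that is lower in DKO makes likely. Flt3, a receptor of early progenitors, ranged from 1780 to 2808 normalized counts in WT and from 57.8 to 641 in DKO.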

How the data were processed

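S0 cells of E12.5 liver were profiled in 4 WT and 4 DKO libraries. The authors trimmed reads with fastp 0.21.0, mapped them to mm10 with HISAT2 2.2.1, kept alignments above a quality cutoff and counted genes with StringTie 1.3.3b and its prepDE script, which works counts back from coverage. The deposited values are whole-number counts per gene, not normalized, and reads shared by overlapping genes may be split. Of 52636 identifiers, 52489 were given a symbol from GENCODE M21 and 49121 matched in version.

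Counts were tested with edgeR 4.0.16 (limma 3.58.1, R 4.3.3): filterByExpr, TMM scaling and robust quasi-likelihood fits of DKO against WT, with Benjamini-Hochberg adjustment over 17378 genes and calls at an adjusted p below 0.05 and a log2 change beyond 1. For single genes, an exact two-sided permutation test over 70 arrangements (smallest p 0.0286) was run on log2 CPM. Totals of 36981439 to 50886469 counts a library limit precision, and floors of 3 counts cover counting error only. No source says that samples are separate embryos, so p-values measure the spread between these samples, which may be technical. No pair of libraries of a genotype agreed within sampling noise (lowest chi-square per gene 17.5). The fit was tested on simulated counts.

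Genes named are the members, genes called in each other list (or the 3 highest there), sorting antigens, the targeted genes and the 5 nearest profiles, and a few partners were named beside them after their values were seen. Results of some genes under this rule are not reported here. The members, lists and rules were chosen with earlier results of these data known. Alternatives were other scalings, DESeq2 1.42.0, other filters, counts divided by 2, a replicate block, a sex term and each library left out. Replicate numbers did not pair the samples (deviation correlations -0.102 to 0.053).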

Additional observations from a re-analysis of the deposited data

Results flagged for a closer look

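C1qa reached 83.0 normalized counts and C1qb 128 normalized counts in DKO replicate 1, each far above the other DKO libraries. The gap to the next library took up 0.849 of the group's range for C1qa and 0.967 for C1qb, above Dixon's 95% critical value for 4 samples. In all, 20 groups (10 genes in WT and in DKO) were examined and 2 stood out, and chance marks about 1 in 20.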

How the results depend on the processing

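Clec7a was called lower in 14 of 15 alternatives that tested it and Itgam in 15 of 16, the sex term being the exception for both. Adgre1 was called in 6 of 15. With at least 10 counts required in every library, 1 macrophage gene was called lower (Itgam), since Adgre1, Clec7a, Mrc1 and the C1q chains were no longer tested. With the sex term, which leaves DKO replicate 3 alone to be set against WT, the Vcam1 change was -2.30. That replicate had the lowest Vcam1 level of the 8 libraries (606 normalized counts). DESeq2 called 7 of the other resident macrophage genes lower. No alternative called a macrophage gene higher. With 1 library left out, between 2 and 4 of the 10 macrophage genes were called lower. Of the 17798 to 18103 genes tested in these fits, between 243 and 521 were called lower and 566 to 1148 higher. The counts over all genes were lowest without WT replicate 1 (258 and 566), 2 (260 and 650) or 4 (243 and 633).

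The replicate block gave 2 macrophage genes lower (Adgre1 lost its call, edgeR adjusted p = 0.0713). Of 17378 genes tested, the block called 343 lower and 613 higher, against 423 and 1076 in the main fit. Replicate numbers did not pair the libraries, as 0 of 4 WT libraries correlated best with the DKO library of their number. Signs turned for C1qa (-0.77 with the replicate block, -6.81 with the sex term, -1.67 to 1.498 with 1 library left out), C1qc (-1.29, -7.25, and -1.20 to 0.88) and Mrc1 (-1.45 to 0.13 with 1 library left out). The values with the sex term rest on DKO replicate 3 alone against WT. Upper-quartile scaling moved the median of all genes from 0.03 to 0.14 and turned no sign among the 10 genes. The cause of these shifts was not tested.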
